A study of Mus musculus with 13 samples.

Results

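The 10 genes described here encode the lysosomal platform that docks the growth-control kinase complex mTORC1. They are the 5 subunits of Ragulator (Lamtor1, Lamtor2, Lamtor3, Lamtor4 and Lamtor5), the 4 Rag GTPases (Rraga, Rragb, Rragc and Rragd) and the lysosomal amino acid transporter Slc38a9. They were picked out of the table by gene symbol, as the members of a known complex. All 10 had a row among the 35013 gene symbols of the deposited table, and all 10 were among the 16468 genes with enough counts to be tested.

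Ragulator sits on the outer face of the lysosome, where the lipid-anchored subunit LAMTOR1 wraps around the LAMTOR2-LAMTOR3 and LAMTOR4-LAMTOR5 heterodimers. It holds the Rag GTPases, which are obligate pairs of RagA or RagB with RagC or RagD, and when amino acids are plentiful the loaded pair recruits mTORC1 to the lysosome, where the small GTPase RHEB activates it. SLC38A9 reports arginine inside the lysosome to this platform. Proximal tubule cells take up large amounts of filtered protein and degrade it in lysosomes, so that the platform sits on a busy compartment in this tissue.

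The study asked how the nascent transcripts of the kidney proximal tubule responded to loss of Spns1, a lysosomal transporter, and to iron loading. The data were 13 kidney libraries from female mice, of which 4 were labelled Spns1 KO, 5 WT and 4 FeO. The strain named in the methods was C57Bl6. According to the methods, every mouse carried the inducible driver Megalin3'Cre-Ert, in which the megalin promoter drives a tamoxifen-dependent Cre, and 1 floxed-stop allele of Uprt, an enzyme that lets Cre-exposed cells build injected 4-thiouracil into new RNA. Spns1 KO mice were in addition Spns1 flox/flox, whereas WT and FeO mice were Spns1 flox/+ by the methods but Spns1 WT by the sample labels. The methods state that all mouse pairs were given tamoxifen in parallel. FeO mice received 12 mg of iron, given as iron sucrose, on each of 3 days and were killed a week later. The age of the mice was not given in the sources used here. RNA carrying the thiol tag was coupled to biotin, pulled down with streptavidin, enriched for poly-A tails and sequenced as paired-end reads. The labels do not state that each library came from a different animal, so the p-values measure the spread between these libraries.

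Total estimated counts ran from 23068023 to 71296474 per library. The targeted gene Spns1 lay between 36.6 and 59.0 CPM (counts scaled to library size) in the libraries labelled Spns1 KO and between 39.2 and 62.9 CPM in WT. Its counts, which cover all exons although the floxed allele loses a single exon, did not separate the groups (log2 fold change -0.31, standard error 0.18, adjusted p = 0.225). Spns1 KO is therefore used below as the name on the label. Separately, the paper reported loss of Spns1 RNA and protein in proximal tubules of Spns1 flox/flox mice with this driver. Markers of other kidney and blood cells were present in every group, none of those listed was at 0 in a whole group, and several lists moved with the groups. The summed level of 10 proximal tubule markers was 6707 to 7548 CPM in the libraries labelled Spns1 KO, 2969 to 4160 CPM in WT and 1852 to 4301 CPM in FeO, and 8 of the 10 were called up in Spns1 KO. The 5 macrophage markers summed to 47.1 to 59.8 CPM in WT, 64.5 to 103 CPM in Spns1 KO and 82.4 to 155 CPM in FeO, and the 3 erythroid markers to 6.64 to 27.4, 32.8 to 128 and 20.7 to 157 CPM. The part of these shifts in the changes below was not tested. Whether these markers came from tagged cells or from untagged RNA carried through the pull-down was not tested either. In RNA pooled from many cells, more cells of a type and more RNA per cell cannot be told apart.

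Promoter windows from 250 bases before to 50 bases after the transcription start (RefSeq, build GRCm38.p6) were on hand for 9 of the 10 genes. The E-box CACGTG, the core recognised by helix-loop-helix factors such as TFEB, MYC and USF1, was found in 4 of the 9 windows, against 7.15% of all 32851 windows of the same length. The motif contains a CpG, and the member windows were richer in CpG, with a median of 18 CpG and 59.67% GC against 7 and 52.67% over all windows. Of the windows with more than 7 CpG, the E-box was in 3 of the 6 of the members and in 10.57% of all 15982. It reads the same on both strands. The 60 bases around it are shown for each of the 4 genes, in the direction of transcription and with CACGTG in capitals, because they are the sequence feature that several members share.
Lamtor1, chr7:101905745-101905804, + strand: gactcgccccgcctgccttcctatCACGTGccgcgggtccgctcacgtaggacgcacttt
Lamtor4, chr5:138255338-138255397, + strand: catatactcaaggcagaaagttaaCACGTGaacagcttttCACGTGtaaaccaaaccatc
Rragb, chrX:153139807-153139866, + strand: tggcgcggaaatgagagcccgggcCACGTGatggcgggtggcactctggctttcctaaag
Rragc, chr4:123917297-123917356, + strand: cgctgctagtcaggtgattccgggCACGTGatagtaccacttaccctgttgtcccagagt
Counted from the transcription start, the E-box began at position -68 of Lamtor1 and -112 of Rragc. Lamtor4 held a pair of them, at -120 and -104, and Rragb held 3, at -127, -36 and -3, of which the first is shown. The longer palindrome TCACGTGA, which contains CACGTG and is preferred by TFEB and its relatives, was in 0 of the 9 windows and in 0.974% of all windows. The ETS-type letters CCGGAAGT, searched on both strands, were in the window of Rraga at position -50 and in 3.887% of all windows. These matches describe letters in the windows and do not show that a factor was bound. Lamtor1 and Lamtor4 were called up in both models, Rragc in FeO alone and Rragb in neither, while Lamtor2 and Lamtor5, called up in both, had windows without it.

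In WT kidneys the members spanned a wide range of levels per kb of transcript (CPM divided by the length of the longest coding transcript). Rragc was highest at 35.7 ± 2.61 CPM per kb (SD, n = 5), followed by Lamtor3 at 32.9 ± 1.94 and Rraga at 22.2 ± 3.47. Lamtor1 lay at 18.2 ± 3.04, Lamtor5 at 16.0 ± 2.29, Rragd at 14.9 ± 3.46 and Lamtor2 at 11.4 ± 2.07 CPM per kb. Lamtor4 followed at 6.62 ± 1.54, Slc38a9 at 6.16 ± 1.36 and Rragb, the minor RagA-type paralog here, at 1.54 ± 0.21 CPM per kb. Between neighbours in this order the library ranges were separate only from Lamtor3 to Rraga, from Lamtor2 to Lamtor4 and from Slc38a9 to Rragb. The order changed in the other groups. Lamtor2 had the highest mean of the libraries labelled Spns1 KO, at 48.2 ± 3.68 CPM per kb (SD, n = 4), and its range overlapped that of Rragc, next at 40.5 ± 9.83. In FeO, Rragc at 50.9 ± 9.29 and Lamtor1 at 47.3 ± 10.1 CPM per kb (SD, n = 4) headed an order in which the ranges of neighbours overlapped down to Rragd. Slc38a9 and Rragb closed the order in all 3 groups.

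**Figure D1:**
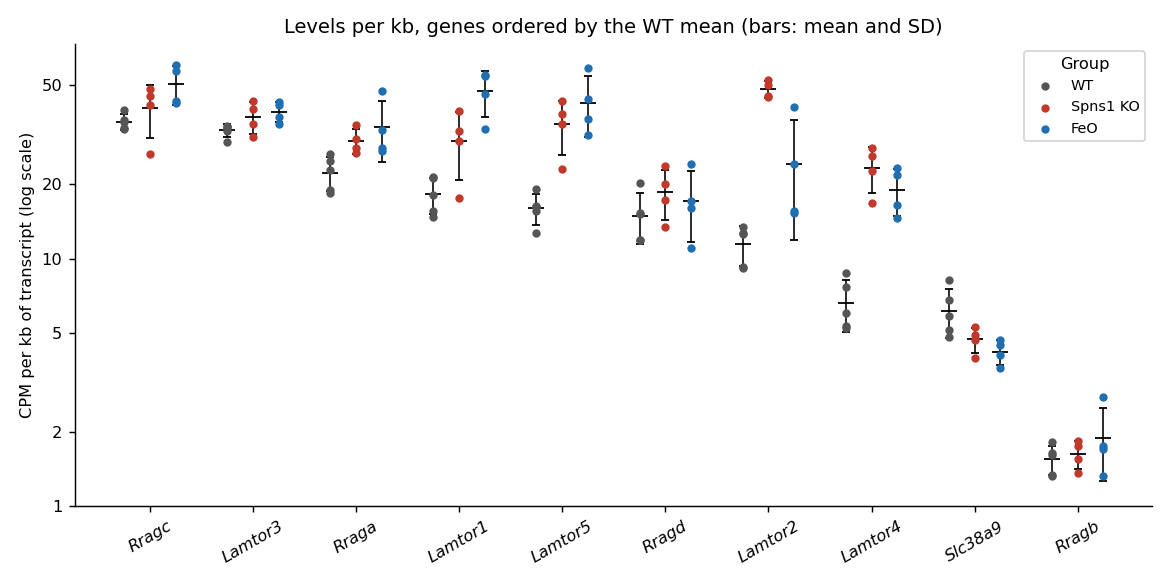
Level of each gene in CPM per kb of its longest coding transcript, on a log axis, with a point for each of the 13 libraries and bars for the group mean and SD (n = 5 WT, 4 Spns1 KO, 4 FeO). Lamtor2 and Lamtor4, low in WT at 11.4 and 6.62 CPM per kb, stood at 48.2 and 23.3 in the libraries labelled Spns1 KO, while Slc38a9 and Rragb stayed at the bottom in every group.

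Ragulator transcripts were higher in both models, with the exception of Lamtor3. In the libraries labelled Spns1 KO, 4 of the 10 genes were called up relative to WT (adjusted p under 0.05 and a log2 fold change beyond 0.5), all of them Ragulator subunits, against 14.0% of all genes tested. None was called down, against 7.55% of all genes, by edgeR, DESeq2 or limma-voom, and 1 gene below WT, Slc38a9, had an unadjusted p under 0.05. In FeO, 6 of the 10 were called up, the same 4 Ragulator subunits with Rraga and Rragc, against 22.4% of all genes, and Slc38a9 was called down, against 19.7%. The 10 genes had a median log2 fold change of 0.37 (Spns1 KO) and 0.56 (FeO), where the medians over all genes tested were -0.05 and -0.01. All libraries labelled Spns1 KO lay above all WT libraries for 4 genes, against 13.1% of all genes tested, and below them for 0, against 9.38%. All FeO libraries lay above WT for 7 genes, against 16.9% of all genes, and below it for 1, against 16.4%. Both comparisons used the same WT libraries, so they are not independent of each other. From a gene set enrichment analysis of these data, the paper named Lamtor1, Lamtor2, Lamtor4, Lamtor5, RagA, RagC and Rheb as enriched in both models. It also named Tsc1 as downregulated. By the limits used here, which are a different measure, Rraga, Rragc and Rheb were not called in Spns1 KO (edgeR adjusted p = 0.0882, 0.476 and 0.419).

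**Figure D2:**
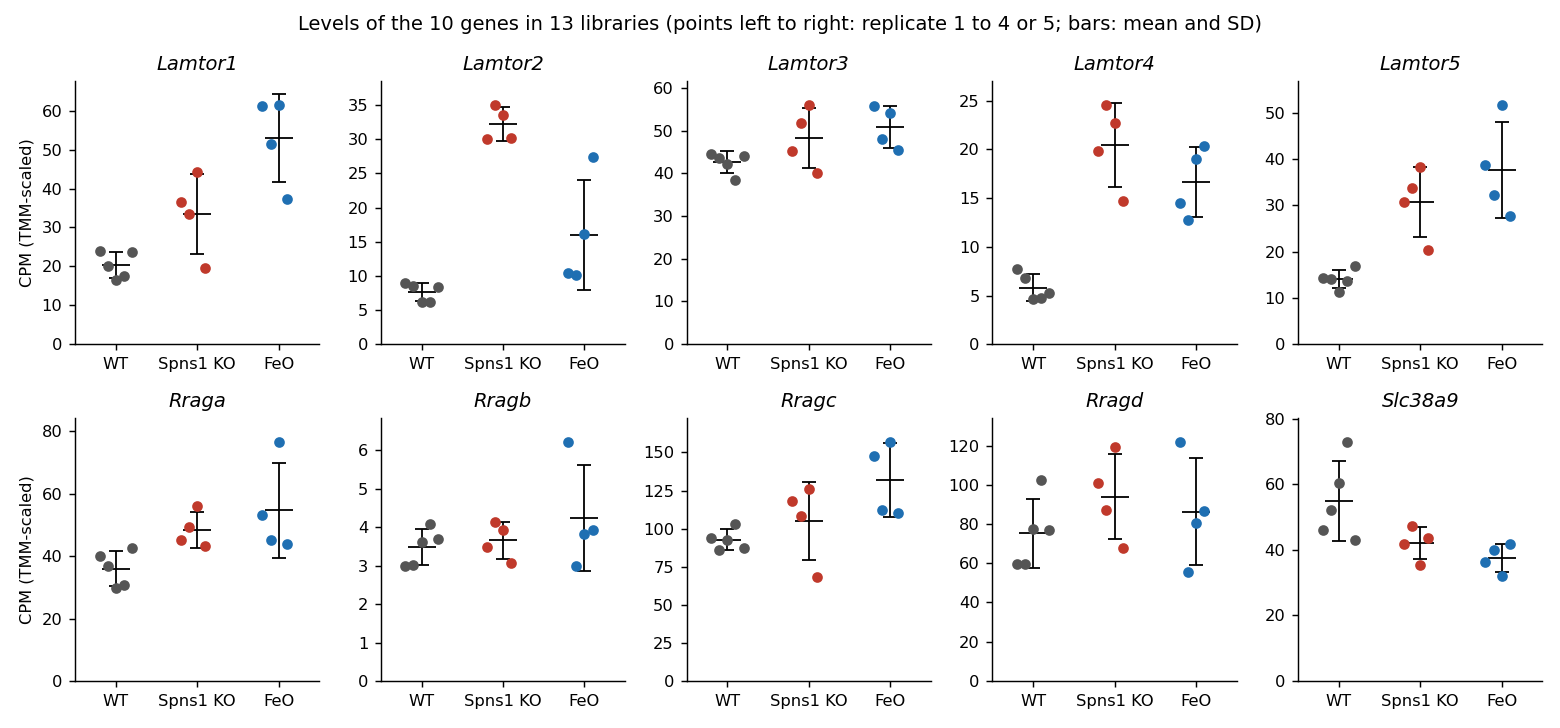
TMM-scaled CPM of each gene on a linear axis from 0, with a point for each library and bars for the group mean and SD (n = 5 WT, 4 Spns1 KO, 4 FeO). Lamtor2 lay between 30.1 and 35.0 CPM in the libraries labelled Spns1 KO against 6.11 to 8.98 in WT, and Lamtor3 lay between 38.4 and 56.0 CPM in all 13 libraries.

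Lamtor1, the scaffold that anchors Ragulator to the membrane, lies on chromosome 7 from 101905904 to 101926675 (GRCm38). Its level was 23.9, 20.2, 16.5, 17.5 and 23.7 CPM in WT 1 to 5. It reached 36.5, 33.5, 44.3 and 19.7 CPM in the 4 libraries labelled Spns1 KO, so that replicate 4 lay inside the WT range. In FeO 1 to 4 it was 61.3, 51.5, 61.5 and 37.4 CPM, above every WT library. The log2 fold change was 0.72 in Spns1 KO (standard error 0.22, adjusted p = 0.0265) and 1.38 in FeO (standard error 0.22, adjusted p = 0.000495), or 2.60-fold. The Spns1 KO call was lost when any of 6 single libraries was left out (Spns1 KO 1, 2 or 3, or WT 2, 3 or 4), over a range of 0.56 to 0.91, and when libraries were scaled by their totals only (0.59, adjusted p = 0.0601), whereas the FeO call was kept without any of the 13. Of its transcript, 28.5% of 31-base words recur in other genes, chiefly the pseudogenes Gm5510 and Gm13077, to which at most 1 count was assigned in any library. Lrrc51, which overlaps Lamtor1 on the opposite strand, held at most 13.3% as many counts.

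Lamtor2 and Lamtor3 form a heterodimer, and Lamtor2 was called up in both models while Lamtor3 was called in neither. Lamtor2, on chromosome 3 from 88549819 to 88553074, was at 8.98, 8.50, 6.17, 6.11 and 8.42 CPM in WT. It was at 30.1, 35.0, 33.5 and 30.2 CPM in those labelled Spns1 KO, a narrow range far above WT. In FeO it was at 10.4, 10.2, 16.1 and 27.4 CPM, so that all libraries lay above WT but replicate 4 lay well above the other three. The log2 fold change of Lamtor2 was 2.07 in Spns1 KO (standard error 0.26, adjusted p = 0.000373), or 4.21-fold, the largest of the 10 genes in that comparison. In FeO it was 1.07 (standard error 0.25, adjusted p = 0.00392), and without FeO 4 it was 0.70. Lamtor3, on chromosome 3 from 137918506 to 137928900, was at 44.6, 43.7, 42.3, 38.4 and 44.1 CPM in WT. It was at 45.2, 51.8, 56.0 and 40.1 CPM in the libraries labelled Spns1 KO and at 55.7, 48.1, 54.0 and 45.3 CPM in FeO. The FeO libraries lay just above the WT range, but the change passed the test in neither model, with log2 fold changes of 0.18 (standard error 0.13, adjusted p = 0.32) and 0.25 (standard error 0.13, adjusted p = 0.117). The pseudogene Gm5900 shares 22.4% of the 31-base words of Lamtor3 and was assigned at most 2 counts.

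The ratio of Lamtor2 to Lamtor3 counts within a library does not depend on how libraries are scaled. The 2 transcripts differ in length, at 668 and 1295 bases, and the part of length in the ratio was not tested. In log2, WT libraries averaged -2.50 ± 0.20 (SD, n = 5), those labelled Spns1 KO -0.58 ± 0.14 and FeO libraries -1.78 ± 0.76 (SD, n = 4 each). There were thus 0.146 to 0.201 Lamtor2 counts per Lamtor3 count in WT and 0.598 to 0.752 in Spns1 KO. The FeO libraries ran from 0.187 in replicate 1, inside the WT range, to 0.605 in replicate 4. The difference between Spns1 KO and WT was 1.92 in log2 (exact two-sided permutation test, p = 0.00794, the smallest that 4 against 5 libraries allow). After adjustment over the 12 ratio tests (4 ratios in 3 comparisons) it was 0.0952, and none of the 12 passed 0.05. A single ratio at this smallest p cannot fall below 0.0952 after adjustment over 12 tests. The adjusted value therefore cannot decide whether this ratio differed. The difference between FeO and WT was 0.71 (exact permutation p = 0.0317, adjusted p = 0.127), and 0.36 without FeO 4.

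Lamtor4 and Lamtor5 form the other heterodimer, and both were called up in both models. Lamtor4, on chromosome 5 from 138255482 to 138259398, was at 7.68, 6.75, 4.60, 4.70 and 5.29 CPM in WT. It was at 19.9, 24.6, 22.7 and 14.7 CPM in the libraries labelled Spns1 KO and at 14.5, 12.8, 19.0 and 20.3 CPM in FeO. Every library of both groups lay above every WT library. The log2 fold change of Lamtor4 was 1.81 in Spns1 KO (standard error 0.21, adjusted p = 0.000285) and 1.52 in FeO (standard error 0.21, adjusted p = 0.000393). Lamtor5, on chromosome 3 from 107278858 to 107284082, was at 14.4, 14.2, 11.2, 13.7 and 16.9 CPM in WT. It was at 30.7, 33.7, 38.1 and 20.3 CPM in the libraries labelled Spns1 KO and at 38.8, 32.2, 51.6 and 27.7 CPM in FeO, again without overlap with WT. Lamtor5 changed by 1.12 in log2 in Spns1 KO (standard error 0.21, adjusted p = 0.00179) and by 1.42 in FeO (standard error 0.21, adjusted p = 0.00042). The calls on Lamtor2, Lamtor4 and Lamtor5 in both models were kept without any of the 13 libraries. The log2 ratio of Lamtor4 to Lamtor5 counts averaged -1.30 ± 0.32 for WT (SD, n = 5), -0.57 ± 0.14 for Spns1 KO and -1.16 ± 0.48 for FeO (SD, n = 4 each). Spns1 KO differed from WT by 0.72 (p = 0.0159 in the exact two-sided permutation test, 0.0952 after adjustment over the 12 tests), and FeO by 0.14 (exact permutation p = 0.651). The pseudogenes Gm15190 and Gm13537 share 31-base words with Lamtor5 and were assigned at most 7 counts in any library.

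The 5 Ragulator transcripts thus lay closer together per kb outside WT. The highest of the 5 was 3.93 to 6.22 times the lowest in the WT libraries, with Lamtor3 highest and Lamtor4 lowest in each. The same ratio was 1.87 to 2.70 in the libraries labelled Spns1 KO, with Lamtor2 highest and Lamtor4 lowest in each. In FeO it was 1.77 to 3.51, and the highest subunit was Lamtor1, Lamtor5 or Lamtor2 depending on the library. These ratios are descriptions of the libraries and were not tested.

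**Figure D3:**
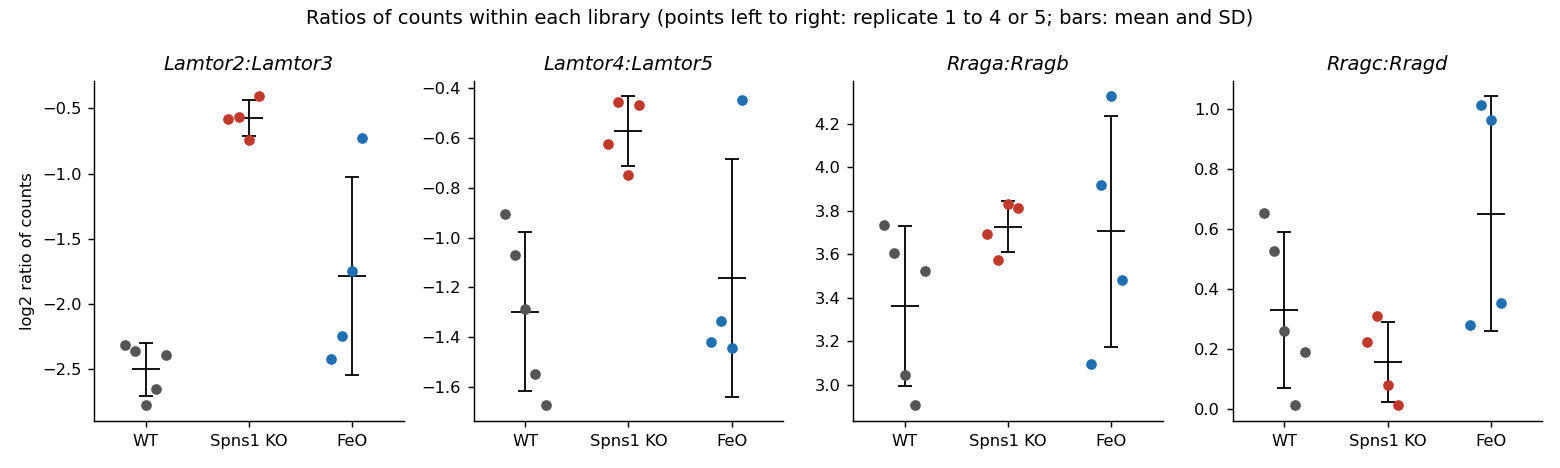
Log2 ratio of deposited counts within each library for the partner pairs Lamtor2:Lamtor3 and Lamtor4:Lamtor5 and for the paralog pairs Rraga:Rragb and Rragc:Rragd, with a point per library and bars for the group mean and SD (n = 5 WT, 4 Spns1 KO, 4 FeO). The Lamtor2:Lamtor3 ratio averaged -2.50 in WT and -0.58 in the libraries labelled Spns1 KO without overlap, and FeO 4 stood apart from the other FeO libraries in both Lamtor ratios.

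The RagA-type GTPases were led by Rraga, a gene with a single exon on chromosome 4 from 86575668 to 86577285. Its level was 39.9, 36.7, 29.8, 30.7 and 42.6 CPM in WT and 45.1, 49.2, 56.0 and 43.1 CPM in the libraries labelled Spns1 KO. In FeO it was 53.2, 45.1, 76.7 and 44.0 CPM. Both groups lay above WT without overlap, by small margins at the nearest libraries. The log2 fold change of 0.43 in Spns1 KO missed the limits (standard error 0.18, adjusted p = 0.0882), and that of 0.61 in FeO passed them (standard error 0.18, adjusted p = 0.0121) but not without FeO 3, where it was 0.40. Rragb, its paralog on the X chromosome from 153139981 to 153171943, was the lowest of the 10, at 2.99 to 4.10 CPM in WT, 3.07 to 4.14 CPM in the libraries labelled Spns1 KO and 2.98 to 6.23 CPM in FeO. The ranges overlapped, with log2 fold changes of 0.07 in Spns1 KO (standard error 0.22, adjusted p = 0.844) and 0.28 in FeO (standard error 0.22, adjusted p = 0.308). There were 7.48 to 13.3 Rraga counts per Rragb count in WT, 11.9 to 14.2 in Spns1 KO and 8.55 to 20.1 in FeO. The mean log2 ratio differed from WT by 0.37 in Spns1 KO (p = 0.111 by the exact two-sided permutation test, 0.222 adjusted) and by 0.34 in FeO (exact permutation p = 0.286, adjusted p = 0.362).

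In mean CPM the RagC-type GTPases lay above the RagA type. Per kb of transcript only Rragc did, while Rragd had a lower mean than Rraga in every group. Those means were 14.9 against 22.2 CPM per kb in WT, 18.6 against 29.9 in Spns1 KO and 17.1 against 33.8 in FeO. Rragc, on chromosome 4 from 123917446 to 123936997, was at 94.0, 86.1, 92.6, 103.2 and 87.4 CPM in WT. It was at 117.9, 108.1, 125.9 and 68.4 CPM in the libraries labelled Spns1 KO, where replicate 4 lay below every WT library and the other 3 above. In FeO it was at 147.8, 112.2, 157.1 and 110.5 CPM, above every WT library. The log2 fold change was 0.18 in Spns1 KO (standard error 0.18, adjusted p = 0.476) and 0.51 in FeO (standard error 0.18, adjusted p = 0.0293). The FeO value lay at the limit and was no longer called in 4 of the 13 fits that left out a library (WT 1, WT 2, FeO 1 or FeO 3, over a range of 0.41 to 0.61), nor with upper-quartile scaling (0.48), library totals (0.44), a replicate block (0.46) or limma-voom (0.49). Of the 31-base words of Rragc, 10.3% recur in other genes, among them its antisense neighbour 4930535I16Rik. Rragd, on chromosome 4 from 32983037 to 33022180, is a known transcriptional target of TFEB and TFE3. It was at 59.8, 59.8, 77.4, 102.5 and 76.7 CPM in WT, at 101.1, 87.4, 119.1 and 67.9 CPM in the libraries labelled Spns1 KO and at 122.0, 55.7, 80.6 and 86.6 CPM in FeO. The 3 groups overlapped, and the log2 fold changes were 0.32 (standard error 0.23, adjusted p = 0.319) and 0.20 (standard error 0.23, adjusted p = 0.494). For the log2 ratio of Rragc to Rragd counts, the WT mean was 0.33 ± 0.26 (SD, n = 5), that of Spns1 KO 0.15 ± 0.13 and that of FeO 0.65 ± 0.39 (SD, n = 4 each). None of the 3 differences passed the exact permutation test, the largest being -0.50 for Spns1 KO against FeO (p = 0.0571, adjusted p = 0.137).

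Slc38a9, the arginine-responsive transporter, was the single member below WT in both models. The gene lies on chromosome 13 from 112660751 to 112738749 and has the longest transcript of the 10, 8910 bases. Its level was 46.0, 52.0, 60.4, 72.9 and 42.9 CPM in WT. It was 41.6, 47.2, 35.4 and 43.7 CPM in the libraries labelled Spns1 KO, which overlapped WT, and 36.2, 40.0, 32.1 and 41.8 CPM in FeO, where each library lay below each WT library. The log2 fold change was -0.39 in Spns1 KO (standard error 0.16, adjusted p = 0.0979) and -0.55 in FeO (standard error 0.16, adjusted p = 0.0145). The FeO call was lost without WT 3, WT 4 or FeO 3, over a range of -0.61 to -0.41, and without the filter on low counts (-0.48). After removal of the trend on length and GC described below, the FeO value of Slc38a9 turned to 0.14, and to 0.11 with a replicate block in addition.

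Within a group some libraries were low or high for many members at once. The library labelled Spns1 KO 4 had the lowest level of its group for 8 of the 10 genes, the exceptions being Lamtor2 and Slc38a9, and Spns1 KO 3 had the highest for 6. FeO 4 had the lowest level of its group for 5 genes and the highest for 3, among them Lamtor2 and Lamtor4. These counts describe single libraries and were not tested. Spns1 KO 4 also stood apart from its group over all genes. The SD of its log2 CPM differences to the other libraries of the group was 0.753 to 0.883, against 0.487 to 0.593 among those. Values of this size were not particular to it. The same SD was 0.789 to 0.881 between FeO libraries and reached 0.746 between WT libraries. Whether the low member levels of Spns1 KO 4 were part of a shift of that whole library was not tested.

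Transcript length ran with the changes, both over all genes and among the members. The longest coding transcript measured 668 bases for Lamtor2, 877 for Lamtor4, 881 for Lamtor5, 1119 for Lamtor1 and 1295 for Lamtor3, against a median of 3061 bases over the 16187 tested genes with a length, so that Lamtor2 was longer than only 2.79% of them. Among the 1942 tested genes with transcripts of at most 1295 bases, 39.4% were called up in Spns1 KO and 49.7% in FeO, with median log2 fold changes of 0.54 and 0.74. Among the 14245 longer genes the shares were 10.5% and 18.7%. The 4 of 5 Ragulator subunits called up stood in a class where such calls were common, and Lamtor3, at the upper end of that class, was below its median in both models. At the other end, Slc38a9 was longer than 96.3% of tested genes. The Rag GTPases lay between, with 1618 bases for Rraga, 2258 for Rragb, 2593 for Rragc and 5055 for Rragd.

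**Figure D4:**
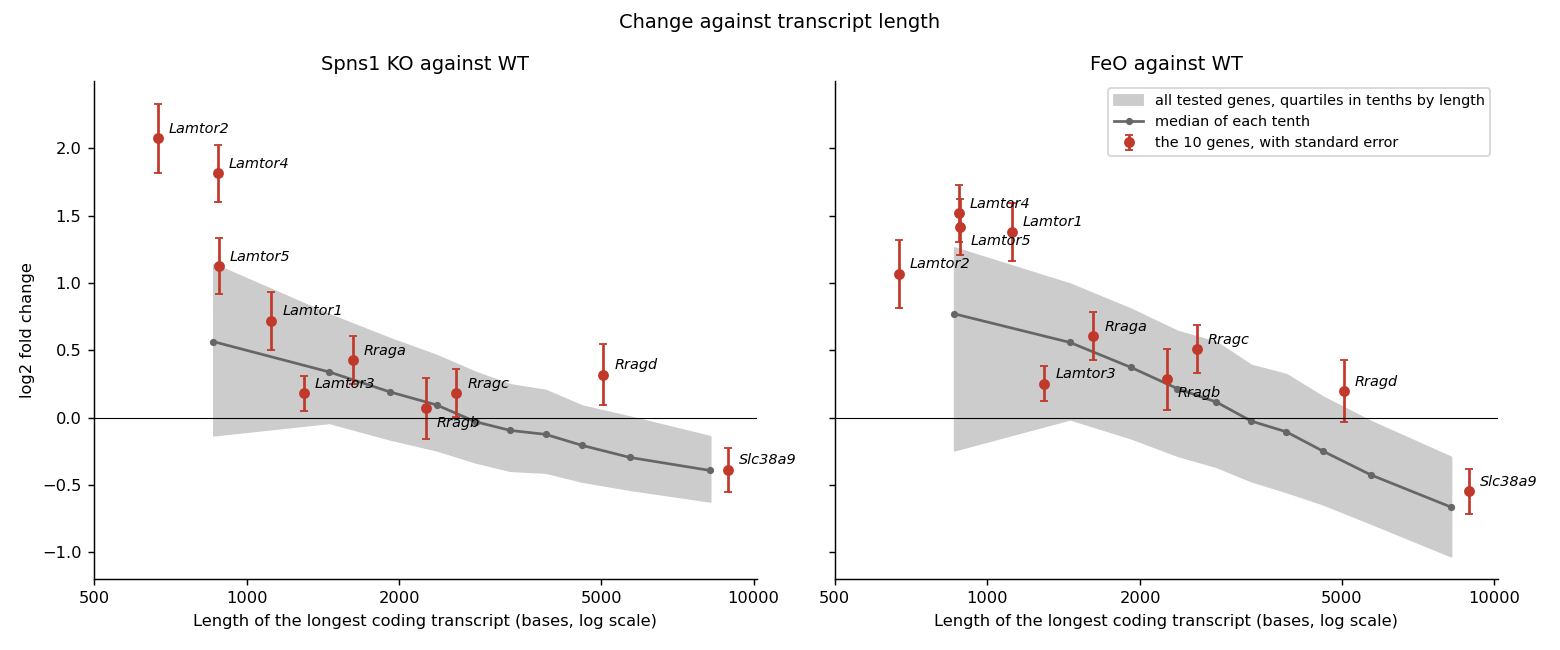
Log2 fold change against WT (points, with standard error) and length of the longest coding transcript on a log axis for the 10 genes, over the median and quartiles of all tested genes in 10 bins of equal size by length. Lamtor2 and Lamtor4 lay above the upper quartile for their length in Spns1 KO, at 2.07 and 1.81, while Slc38a9 lay close to the median of the longest genes in both models.

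With the dependence of each library's counts on transcript length and GC content smoothed out before the fit, the Ragulator changes became smaller but did not all disappear. In Spns1 KO the log2 fold changes were 1.45 for Lamtor2 (adjusted p = 0.00102), 1.23 for Lamtor4 (adjusted p = 0.000882) and 0.63 for Lamtor5 (adjusted p = 0.0261), all still called, although Lamtor5 was not with a replicate block in addition (0.62, adjusted p = 0.0693). Lamtor1 fell to 0.21 (adjusted p = 0.469) and was no longer called. In FeO, Lamtor1 at 0.89 (adjusted p = 0.00447), Lamtor4 at 0.98 (adjusted p = 0.00171) and Lamtor5 at 0.90 (adjusted p = 0.00298) were still called. Lamtor2 at 0.50 (adjusted p = 0.0616), Rraga at 0.28 (adjusted p = 0.125) and Rragc at 0.45 (adjusted p = 0.0454) were not. Lamtor3 turned to -0.12 in Spns1 KO and -0.14 in FeO, and Slc38a9 to 0.04 and 0.14, none of them called. Rragd moved the other way, from 0.32 to 0.60 in Spns1 KO (adjusted p = 0.0824) and from 0.20 to 0.56 in FeO (adjusted p = 0.0625), without passing the test. Lamtor4 and Lamtor5 were thus called up in both models with and without the trend. The shares of all genes called in the fits without the trend were not determined, so these calls have no background to be read against. The part of transcript length in the changes was not tested.

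**Figure D5:**
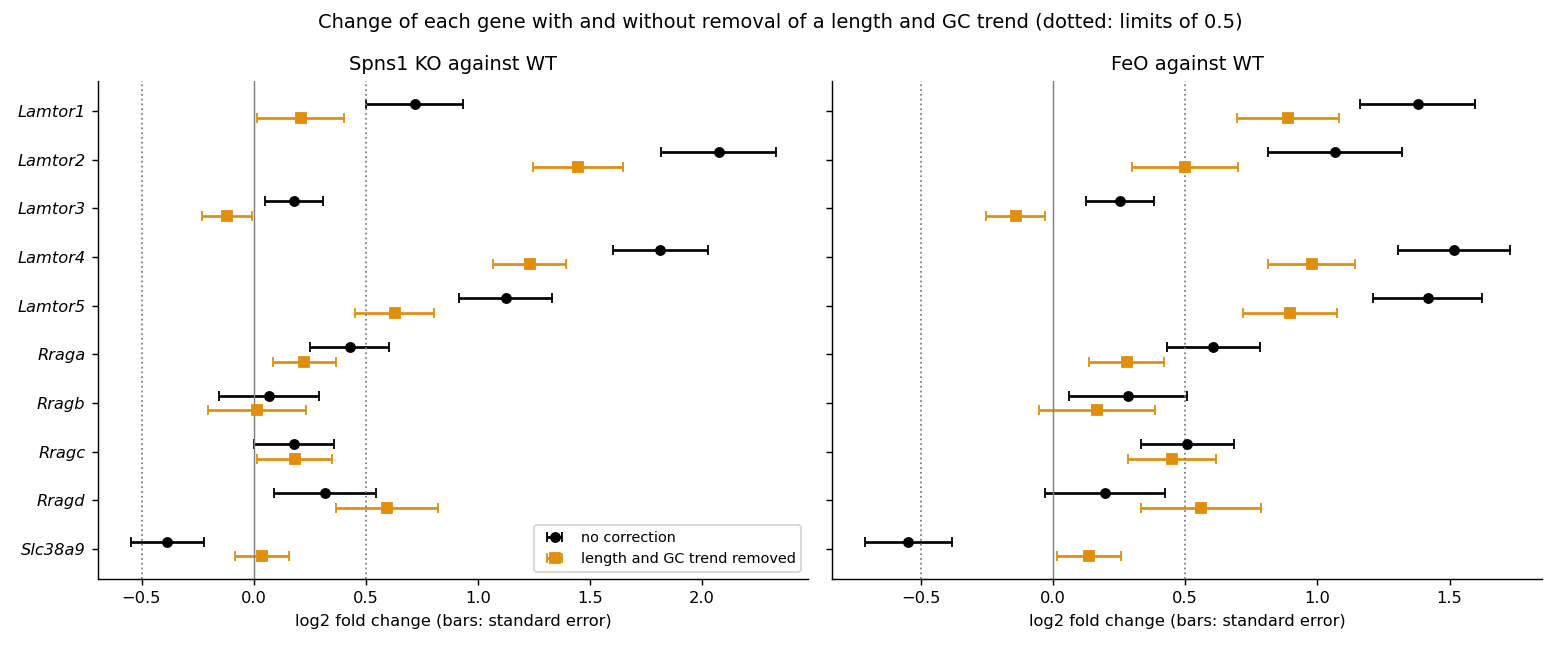
Log2 fold change of each gene against WT with its standard error, as fitted (black circles) and after removal of a length and GC trend from each library (orange squares), with dotted lines at the limits of 0.5. In Spns1 KO, Lamtor2 moved from 2.07 to 1.45 and Lamtor1 from 0.72 to 0.21, and Slc38a9 changed sign in both models.

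Compared directly, the 2 models differed past the limits in a single member. Lamtor2 was higher in the libraries labelled Spns1 KO than in FeO, with a log2 difference of 1.01 (standard error 0.27, adjusted p = 0.0221), and all 4 libraries labelled Spns1 KO lay above all 4 FeO libraries, which held for 8.25% of all genes. None of the 10 genes was separated the other way, against 9.10% of all genes. It was the 1 gene of the 10 called higher in Spns1 KO, against 6.76% of all genes tested, and 0 of the 10 were called lower by edgeR, against 8.10%. The number called lower was 1 by DESeq2, 0 by limma-voom and 1 at an unadjusted p under 0.05 in edgeR, the gene being Lamtor1. The Lamtor2 call was lost without the library labelled Spns1 KO 2 (0.97, adjusted p = 0.0544), without FeO 1 (0.86, adjusted p = 0.0637) and in a fit of these 2 groups alone (1.00, adjusted p = 0.0659). Lamtor1 went the other way, with a log2 difference of -0.66 (standard error 0.23, adjusted p = 0.0614), and overlapped between the groups. It passed the limits in 5 of the 10 other fits, at -0.68 to -0.72, and without the library labelled Spns1 KO 3 or without FeO 4. For the other 8 genes the difference between the models ran from -0.33 for Rragc (adjusted p = 0.237) to 0.30 for Lamtor4 (adjusted p = 0.363).

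The genes whose levels ran most like those of a member were sought among the 12208 genes that averaged 100 counts or more. Likeness was the root mean square difference in log2 CPM over the 13 libraries after each gene was centred on its own mean, so that smaller values are closer. Lamtor2 was closest to Ndufs6, a subunit of respiratory complex I, at 0.123, followed by Acot13, an acyl-CoA thioesterase, at 0.180. Lamtor4 was closest to Tomm6, a subunit of the mitochondrial import pore, at 0.149 and to Naa38 at 0.165. Lamtor5 was closest to Esd at 0.122 and to Ndufaf3, an assembly factor of complex I, at 0.143. Lamtor1 was closest to Nabp2 at 0.102 and to the translation factor Eif5a at 0.104. Rraga was closest to Srp9, of the signal recognition particle, at 0.0876 and to Trappc6b at 0.121. Rragc was closest to Ublcp1 at 0.0685 and to Tomm20 at 0.0759, and Slc38a9 to Wdr76 at 0.107 and to Mdm4 at 0.109. No member was among the closest pair of another member.

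The rest of the pathway was read from a list of 64 other genes, of which 63 had a row and were tested. In Spns1 KO 12 were called up and 6 down, and in FeO 22 up and 15 down, with medians of -0.07 and 0.04. Over all genes tested, the shares in the same order were 14.0%, 7.55%, 22.4% and 19.7%. After removal of the length and GC trend the pathway counts, again in that order, dropped to 3, 3, 13 and 7, and to 1, 1, 7 and 7 with a replicate block in addition. The shares over all genes in those fits were not determined. The V-ATPase, the lysosomal proton pump that binds Ragulator, had 7 of 16 genes called up in Spns1 KO and 10 of 16 in FeO, and none called down. BORC, a lysosome-positioning complex that also binds Ragulator, had 3 of 8 called up in Spns1 KO and 5 of 8 in FeO. In Spns1 KO the largest increases were in Bloc1s1 of BORC, with a log2 fold change of 1.73 (adjusted p = 0.000507), and in the pump subunits Atp6v1f at 1.01 (adjusted p = 0.00299) and Atp6v1g1 at 0.95 (adjusted p = 0.0144). In FeO they were in Atp6v1f at 1.39 (adjusted p = 0.000408), Atp6v0e at 1.21 (adjusted p = 0.000606) and Bloc1s1 at 1.16 (adjusted p = 0.00217).

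Genes called down lay elsewhere in the pathway. In Spns1 KO the largest decreases were in Sh3bp4, an inhibitor of the Rag GTPases, with a log2 fold change of -1.11 (adjusted p = 0.00218), in the leucine sensor Sesn1 at -1.01 (adjusted p = 0.0173) and in Tsc1 at -0.72 (adjusted p = 0.0323). In FeO they were in Fnip2 at -1.82 (adjusted p = 0.00108), Tsc1 at -1.47 (adjusted p = 0.000495) and Sesn1 at -1.33 (adjusted p = 0.00193). The 6 calls down in Spns1 KO were unstable, at 1 to 11 when single libraries were left out, whereas the 15 in FeO ran from 13 to 17. Flcn, which with Fnip1 or Fnip2 acts on RagC and RagD, changed by -1.07 in FeO (adjusted p = 0.00162) and by -0.30 in Spns1 KO (adjusted p = 0.319). Rheb, the activator of mTORC1 that Tsc1 holds back through its partner, was at 0.83 in FeO (adjusted p = 0.00264) and 0.21 in Spns1 KO (adjusted p = 0.419). Tfeb, whose product is a Rag-dependent substrate, was at -0.19 (adjusted p = 0.439) and 0.03 (adjusted p = 0.915). Between the models, 3 of the 63 were called higher in Spns1 KO, against 6.76% of all genes tested. They were Flcn at 0.77, Tsc1 at 0.75 and Mtor at 0.61. In FeO 8 were called higher, against 8.10% of all genes. These were led by Atp6v0e, Borcs5 and Eif4ebp1 with log2 differences of -1.31, -1.05 and -0.89. The count higher in Spns1 KO was 0 with library totals only, with a replicate block and in fits of 2 groups alone.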

How the data were processed

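The authors deposited estimated counts per gene symbol for each library, unnormalized. The submitters' processing notes name bcl2fastq 2.19, kallisto 0.44.0, DESeq2 and GRCm38, and the table carries kallisto's name, whereas the methods describe STAR alignment to mm10 and HTSeq counting. The route to the counts was not settled here. Deposited values were whole numbers. The largest carried 6 significant digits.

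All 13 libraries (4 Spns1 KO, 5 WT, 4 FeO) entered a single fit with edgeR 4.0.16 (filterByExpr, TMM factors, quasi-likelihood test, Benjamini-Hochberg adjustment over 16468 genes). The fit was also run on counts simulated from these data for Spns1 KO against WT, with the outcome not reported here. A gene was called at an adjusted p under 0.05 and a log2 fold change beyond 0.5, the limits of the study, which used DESeq2. Unless stated otherwise, adjusted p-values come from the edgeR test on the deposited counts. Count ratios were compared by exact permutation tests. Lengths, GC content, positions and shared 31-base words came from GENCODE M21, whose length and GC covered 98.29% of tested genes, and promoters from RefSeq.

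The members, the pathway and marker lists and the tests were chosen with earlier results of these data known. All 10 members are named. Of other pathway genes, the 3 largest calls in each direction per comparison are named, with Rheb, Tsc1, Flcn and Tfeb. Genes most like a member are named for members called at least once. Alternatives were other scalings (RLE, upper quartile, library totals), no filter, DESeq2 1.42.0, limma-voom 3.58.1, fits of 2 groups, a replicate block, a length and GC trend, both together, and leaving out each library. Same-numbered libraries correlated at -0.296 to 0.256 in their deviations from group means. Differently numbered libraries were not compared in this way, so pairing by number was neither shown nor excluded. The methods describe the controls as littermates.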

Additional observations from a re-analysis of the deposited data

Results flagged for a closer look

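Lamtor2 was the 1 member of 10 called different between the models, against 6.76% of all genes called higher in Spns1 KO and 8.10% lower. Its log2 fold change against WT was higher by 1.01 in the libraries labelled Spns1 KO than in FeO (edgeR's test of that difference, adjusted p = 0.0221). All 4 libraries labelled Spns1 KO lay above all 4 FeO libraries, which held for 8.25% of all genes. The call was lost without the library labelled Spns1 KO 2, without FeO 1 and in a fit of the 2 groups alone. Lamtor1, at -0.66 (adjusted p = 0.0614), was called in 5 of the 10 other fits of all libraries, among them DESeq2 and the replicate block (-0.68, adjusted p = 0.0389).

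In the log2 ratio of Lamtor4 to Lamtor5 counts, FeO 4 stood far from the other FeO libraries. The values were -1.42, -1.34, -1.44 and -0.45 in FeO 1 to 4, and the gap between FeO 4 and the next library was 0.894 of the range of the group. It was the 1 case among 42 sets of values examined, of which chance would single out about 2.1. FeO 4 also had the highest Lamtor2 level of its group, 27.4 CPM against 10.2 to 16.1 CPM in the other FeO libraries.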

How the results depend on the processing

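Of the 10 fits that kept all libraries, those that removed the length and GC trend, with or without a replicate block, changed the most member results (12 and 11 of 30), and counts of calls below are given in the order up, then down. With the trend removed, 3 and 0 members were called in FeO, and the other pathway genes called were 3 and 3 in Spns1 KO, 13 and 7 in FeO, and 1 up between the models. With the trend and a replicate block together, 2 members were called up in Spns1 KO and 3 and 0 in FeO, and the other pathway genes called were 1 and 1 in Spns1 KO, 7 and 7 in FeO, and 1 and 5 between the models. Lamtor1 was called lower in Spns1 KO than in FeO, so that 1 member was called down there, with library totals only, with the replicate block, with the trend removed, with both, and with DESeq2.

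Signs turned with the trend removed for Lamtor3 (-0.12 in Spns1 KO, -0.14 in FeO, 0.021 between the models) and Slc38a9 (0.038, 0.14 and -0.098), and with the replicate block as well they were -0.13, -0.16 and 0.025 for Lamtor3 and 0.0097, 0.11 and -0.10 for Slc38a9. None of these values was called. With library totals only, Rragb in Spns1 KO was at -0.065, and the median log2 fold change of all genes moved from -0.05 to -0.18. The other pathway genes called in Spns1 KO were then 6 and 12, and 0 were higher in Spns1 KO than in FeO. Without the filter on low counts, 0 members were called down in FeO and 2 other pathway genes down in Spns1 KO. In fits of 2 groups alone, 0 members and 0 other pathway genes were called up between the models and 3 down. DESeq2 and limma-voom each called 5 other pathway genes higher in Spns1 KO than in FeO. The causes were not tested.

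Leaving out single libraries gave 0 to 1 members called down in FeO (0 without WT 3, WT 4 or FeO 3) and, between the models, 0 to 1 up (0 without Spns1 KO 2 or FeO 1) and 0 to 1 down (1 without Spns1 KO 3 or FeO 4). For the other pathway genes the counts ran from 5 to 17 up and from 1 to 11 down in Spns1 KO, and from 0 to 5 up and 2 to 10 down between the models. The counts up in Spns1 KO moved by more than 1.5 times without Spns1 KO 2 (7) or 3 (5). The counts down did so without Spns1 KO 1, 2 or 3 (1 each), Spns1 KO 4 (11) or WT 1, 2, 3 or 4 (2 each). Between the models the counts up did so without Spns1 KO 1, WT 1, 2 or 3 or FeO 4 (1 each), Spns1 KO 2 or 4 or FeO 1 (0 each) or FeO 2 (5), and the counts down without Spns1 KO 1 or FeO 1 (2 each), Spns1 KO 2 (3), Spns1 KO 4 (4) or FeO 3 (5). Signs of uncalled values turned for Rragd in FeO (range -0.0022 to 0.38, negative without FeO 1). Between the models they turned for Lamtor3 (-0.15 to 0.0060, positive without Spns1 KO 4), Rraga (-0.27 to 0.028, positive without FeO 3), Rragb (-0.35 to 0.036, positive without FeO 1) and Rragd (-0.038 to 0.34, negative without Spns1 KO 3 or FeO 2). The log2 ratio of Rraga to Rragb between the models, 0.02, ran from -0.18 to 0.23 and turned without Spns1 KO 3 (-0.01), Spns1 KO 4 (-0.0062), FeO 1 (-0.18) or FeO 4 (-0.05). That of Lamtor4 to Lamtor5 in FeO, 0.14, ran from -0.10 to 0.23 and turned without FeO 4.

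The replicate block alone called 0 other pathway genes higher in Spns1 KO than in FeO, moved Rragc in FeO to 0.46 (adjusted p = 0.0686), where it was no longer called, and otherwise changed no member's call against WT. Depth limited Rragb most, with a mean of 107.0 counts per WT library.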

Other observations

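The upstream arms of the pathway were read from the same list. GATOR1, which switches RagA and RagB off, had Nprl2 called up in both models and Nprl3 called down in FeO, out of 3 genes. GATOR2, which restrains GATOR1, had Sec13 called up in both models and Mios called down in FeO, out of 5. The 6 amino acid sensors and their relatives had 2 genes called down in Spns1 KO and 3 in FeO, with median log2 fold changes of -0.53 and -0.78. The 6 Rag regulators had 1 gene called down in Spns1 KO and 4 in FeO, with medians of -0.37 and -0.91, and none called up. Among the 5 mTORC1 subunits, Mtor was called down in both models, while Rptor was called down and Akt1s1 up in FeO. Of the 5 genes of the Rheb arm, Tsc1 was called down in both models, and Rheb and Tbc1d7 were called up in FeO. Of 3 mTORC1 targets, Ulk1 was called down in both models, Rps6kb1 down in FeO and Eif4ebp1 up in FeO. None of the 3 Rag substrates was called in either model. The lists were described by their counts and were not tested as sets. For comparison, FeO calls covered 22.4% (up) and 19.7% (down) of the 16468 genes tested. The matching shares for Spns1 KO were 14.0% (up) and 7.55% (down). In the longest of the 10 bins by transcript length, the median log2 fold change was -0.39 for Spns1 KO and -0.66 for FeO. The part of transcript length in the counts of each list was not tested.

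The remaining marker lists also differed between groups. The 4 podocyte markers summed to 155 to 276 CPM in WT, 225 to 284 CPM in the libraries labelled Spns1 KO and 276 to 630 CPM in FeO. The 4 endothelial markers summed to 131 to 147, 182 to 191 and 123 to 207 CPM, and the 4 fibroblast markers to 47.9 to 77.6, 85.1 to 126 and 40.4 to 97.1 CPM. The 2 markers of the loop of Henle summed to 1109 to 2436, 1998 to 2704 and 1286 to 3371 CPM, and the 7 of the distal tubule and collecting duct to 592 to 1887, 1145 to 2147 and 852 to 2590 CPM. The 4 lymphoid and plasma cell markers summed to 2.24 to 10.7 CPM in WT, 11.0 to 63.0 CPM in Spns1 KO and 14.8 to 60.9 CPM in FeO.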
